A study of Mus musculus with 2 samples.

Results

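The cells described here are 370 cell barcodes of a PyMT mammary tumor library that held Krt8 and Krt18 RNA and few or no UMIs of 6 marker genes of endothelial cells, leukocytes and fibroblasts. They were chosen by counts of unique molecular identifiers (UMIs, the tags that mark single RNA molecules). Each barcode had at least 500 genes and under 10% mitochondrial UMIs, a sum of Krt8 and Krt18 of at least 3 UMIs, a sum of Pecam1, Cdh5 and Egfl7 of at most 2, Ptprc of at most 1 and a sum of Lum and Dpt of at most 1. They made up 3.15% of the 11744 PyMT barcodes that passed the cell filter, and the 2 libraries of the study together held 21335 such barcodes. Because these 8 genes chose the cells, they are not given as results. The cells are called gated cells hereafter, since most genes of epithelial identity were close to 0 in them.

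The study, on venule genes of tumor vessels, profiled sorted vessel lining cells of a breast tumor model (PyMT) and a pancreas tumor model (KPC) by single-cell RNA sequencing, with 1 library per model. In each, 100000 tumor cells were implanted in wild-type C57BL6 female mice aged 6 weeks, and tumors were digested after 10 days with collagenase D at 400 U/mL (PyMT) or 500 U/mL (KPC). The PyMT line came from tumors of MMTV-PyMT mice, in which a mammary tumor virus promoter drives the polyoma middle T antigen, and it was placed in the mammary gland, whereas KPC cells were placed in the pancreas. Dying cells and cells carrying CD45, Ter119, EpCAM or podoplanin on their surface were removed before blood endothelial cells were sorted, and the labels call both libraries tumor endothelial cells. The gated cells thus passed a sort aimed at endothelial cells, and the levels of Epcam and Pdpn in particular can be set by that sort. The number of mice behind each library was not stated. With 1 library per model there is no replicate, and no test was run across conditions. Every interval below is a 95% interval for counting error only, of UMIs or, for shares, of cells taken as independent. None covers differences between mice or libraries.

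Krt8 and Krt18 encode the keratin pair of simple epithelia, where they form filaments anchored to desmosomes. Epithelial cells are also joined by E-cadherin, claudins and EpCAM, and carcinoma cells that undergo an epithelial-mesenchymal transition (EMT) lower these genes and raise others, such as vimentin, fibronectin and S100a4, under factors of the Zeb, Snai and Twist families. Zeb and Snai proteins bind the E-box sequence and repress epithelial promoters.

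The PyMT library held 12464 barcodes and 55547926 UMIs, of which 720 barcodes were removed by the filter. The gated cells carried 2405115 UMIs, with a median of 5908.5 per cell (lowest 1182, highest 21918) and a median of 2095 genes. The other 11374 barcodes had a median of 3926 UMIs, and 10520 of them were endothelial-gated (Pecam1, Cdh5 and Egfl7 summing to at least 3 UMIs with Krt8 and Krt18 at most 2). Median mitochondrial shares were 2.55% in gated cells and 2.86% in the others. The 2 libraries shared 170 barcode sequences, 151 among filtered barcodes, 3 between the gated cells and any KPC barcode, and 0 between the gated cells of both libraries. A doublet caller (Scrublet) marked 0 barcodes and so had not worked. Its scores were tied near the top 8%, and 826 filtered barcodes (7.03%) lay above that limit, among them 7 gated cells (1.89% of the gated cells).

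Endothelial genes that the gate did not use were low throughout, as the plot of endothelial genes shows. Levels are given as CPM, the summed UMIs of a gene over a group of cells per 1000000 UMIs of that group. The 29 listed endothelial genes summed to 1235 CPM in gated cells, against 13330 CPM in the other barcodes. Kdr, the main VEGF receptor of blood vessels, stood at 8.32 CPM against 299 CPM in endothelial-gated barcodes, or 2.78% of that level. The median over the 29 genes was 3.84% of the endothelial-gated level, 26 genes lay at 1.51% or more but under 10%, and Erg, an endothelial ETS factor, had 0 UMIs. The 2 exceptions were Ctla2a, a cysteine protease inhibitor, at 665 CPM or 22.5% of the endothelial-gated level, and Cd34, a sialomucin of endothelial and progenitor cells, at 94.4 CPM or 13.1%. The part of free RNA in these levels was not tested.

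**Figure D1:**
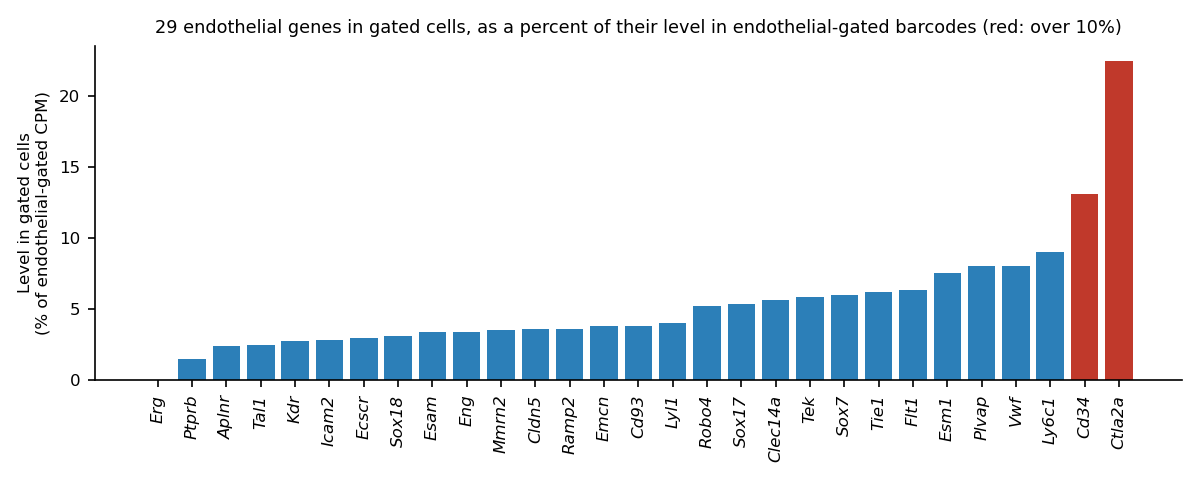
Bars give the CPM of 29 endothelial genes in the 370 gated cells as a percent of their CPM in 10520 endothelial-gated barcodes of the same library. Erg is at 0, 26 genes are at 1.51% or more but under 10%, and Cd34 (13.1%) and Ctla2a (22.5%), in red, stand above 10%.

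Marker lists of other cell types were low or held in part. The 18 immune genes summed to 5.82 CPM in gated cells and 52.9 CPM in the other barcodes, with 10 genes at 0 UMIs. The 14-gene fibroblast list summed to 855 CPM in gated cells, above the 357 CPM of the other barcodes, led by Serpinf1 (377 CPM), Gsn (188 CPM) and Cxcl14 (174 CPM), while Thy1 was at 1.66 CPM and Clec3b at 0. The same list summed to 12327 CPM in 361 fibroblast-gated barcodes of the KPC library (Lum and Dpt summing to at least 3 UMIs). The 12 pericyte genes summed to 89.0 CPM against 333 CPM. Of the 333 CPM, 221 CPM came from Mcam, which endothelial-gated barcodes held at 229 CPM. Cspg4, Cox4i2, Vtn, Higd1b and Ndufa4l2 had 0 UMIs in gated cells, but Pdgfrb, a receptor for platelet-derived growth factor, was at 44.1 CPM against 4.93 CPM in the other barcodes and Rgs5, a pericyte signaling regulator, at 29.1 CPM against 11.8 CPM. The part of fibroblasts or pericytes in these levels was not tested. The 9 mesothelial genes summed to 13.3 CPM, all of it from Msln (mesothelin, 32 UMIs), with the other 8 genes at 0. Lymphatic endothelial genes summed to 54.5 CPM against 1256 CPM, with Prox1, the lymphatic master factor, at 0. A list of 18 genes of other lineages summed to 29.5 CPM against 48.0 CPM, with 10 genes at 0. In it S100b was at 21.2 CPM against 1.07 CPM and Sox10 had 3 UMIs, against 0 in the other barcodes. Hbb-bs was at 0.83 CPM against 28.6 CPM, and Hba-a1 and Cfd were at 0. The tumor origin of the gated cells was not measured. Gated cells held Xist, the noncoding RNA of the inactive X chromosome, at 1391 CPM (other barcodes 1167 CPM) and 0 UMIs of the Y-linked genes Ddx3y, Eif2s3y, Kdm5d and Uty, all of which were also at 0 in the other barcodes.

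The gated cells held few epithelial genes beyond the keratins that chose them. Of 36 genes of epithelial junctions and identity, 11 had 0 UMIs and 6 reached 10 CPM. These were Jup (plakoglobin, a linker of adhesion junctions) at 99.8 CPM, Spint2 (a membrane protease inhibitor) at 29.1 CPM, Perp (a desmosomal protein) at 24.1 CPM, Cldn3 (a tight junction claudin) at 23.3 CPM, Sfn (an epithelial 14-3-3 protein) at 22.0 CPM and Epcam at 15.4 CPM (10.8 to 21.2 CPM). The other barcodes held Jup at 95.5 CPM and Spint2 at 139 CPM, so neither was higher in gated cells by 2-fold. The levels in the other barcodes were 0.34 CPM for Perp, 0.38 CPM for Cldn3, 1.47 CPM for Sfn and 0.50 CPM for Epcam. In gated cells the 37 Epcam UMIs came from 10 cells, and 1 cell held 15 of them. Cdh1, which encodes E-cadherin, had 2 UMIs in all 370 cells together. Krt19 had 3 UMIs, all in 1 cell. Desmoplakin (Dsp) and the epithelial transcription factors Elf3, Grhl2 and Ovol1 had 0 UMIs, which allows up to 1.25 CPM by the floor of 3 UMIs. The list summed to 244 CPM in gated cells and 251 CPM in the other barcodes, where Jup and Spint2 made up 234 CPM. Without these 2 genes, left out after their values were seen, the sums were 115 CPM in gated cells and 17.0 CPM in the other barcodes.

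The same gate in the KPC library took 663 cells, and these held the epithelial genes at much higher levels. The 36 genes summed to 6052 CPM there, with 18 genes at 10 CPM or more. Krt19 stood at 2856 CPM, Krt7 at 1490 CPM, Muc1, a mucin, at 220 CPM, Epcam at 172 CPM and Cdh1 at 113 CPM. Among genes with at least 100 UMIs over the gated cells of both libraries, 8.08% of 7684 were at least 2-fold higher in PyMT and 13.9% at least 2-fold lower, and of 17 epithelial genes with that many UMIs 0 were higher and 15 lower in PyMT. Their median log2 ratio was -4.36, beside -0.04 over all 7684 genes. Tumor model, line, organ and library cannot be told apart in this comparison. After each cell was thinned to 2000 UMIs, 29.3% of 365 PyMT gated cells had a UMI of any epithelial gene (24.7% to 34.3%, Clopper-Pearson) and 98.9% of 656 KPC gated cells did. The share in 9427 endothelial-gated PyMT barcodes was 38.0%, above that of the gated cells, with Spint2 and Jup counted in. Without these 2 genes, left out after their values were seen, the direction turned. A UMI of the other 34 genes was found in 24.6% of gated cells and 6.24% of endothelial-gated barcodes. These shares are for cells of full depth, which differed between the groups.

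Other keratins were also scarce. Of 51 further keratin genes in the files, 8 had a UMI in gated cells and 2 reached 10 CPM, compared with 7 in KPC gated cells. Krt76, a keratin of oral and other stratified epithelia, had 71 UMIs in 48 cells, or 29.5 CPM against 0.84 CPM in the other barcodes. Krt10, a keratin of differentiated epidermis, had 36 UMIs in 32 cells, or 14.97 CPM against 9.23 CPM.

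Nearly all UMIs of Epcam and Krt7 came from 30 of the 370 cells, described later as subgroup 5. The 250 bases before the start sites of these 2 genes are shown, from the RefSeq promoter table for GRCm38.p6. The capitals mark the E-box letters CAGGTG and their reverse complement CACCTG, which were searched for on both strands. Epcam lies on the plus strand with the window at chr17:87635729-87635978, and Krt7 on the plus strand at chr15:101412153-101412402.
Epcam: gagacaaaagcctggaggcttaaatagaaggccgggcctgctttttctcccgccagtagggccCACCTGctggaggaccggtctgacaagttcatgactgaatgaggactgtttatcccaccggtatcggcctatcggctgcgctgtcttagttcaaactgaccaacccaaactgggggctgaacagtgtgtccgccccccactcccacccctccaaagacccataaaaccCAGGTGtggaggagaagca
Krt7: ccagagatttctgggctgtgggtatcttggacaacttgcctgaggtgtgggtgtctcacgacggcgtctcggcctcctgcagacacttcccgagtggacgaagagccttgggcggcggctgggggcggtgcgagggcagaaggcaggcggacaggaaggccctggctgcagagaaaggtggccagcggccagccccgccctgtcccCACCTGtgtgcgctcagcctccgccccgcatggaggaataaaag
The Epcam window held these letters 2 times, beginning 187 and 19 bases before the start, and the Krt7 window once, 44 bases before it. Of 36 epithelial genes 20 had a sequence in the table, and 14 of them (70.0%) held the letters, beside 5252 of 27025 genes (19.4%) in windows of the same length. A match is a description of the letters and not of binding, which was not measured here. Zeb2 stood at 44.4 CPM in subgroup 5, within the 27.6 to 59.2 CPM of the other subgroups. The part of these letters in the levels of Epcam or Krt7 was not tested.

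**Figure D2:**
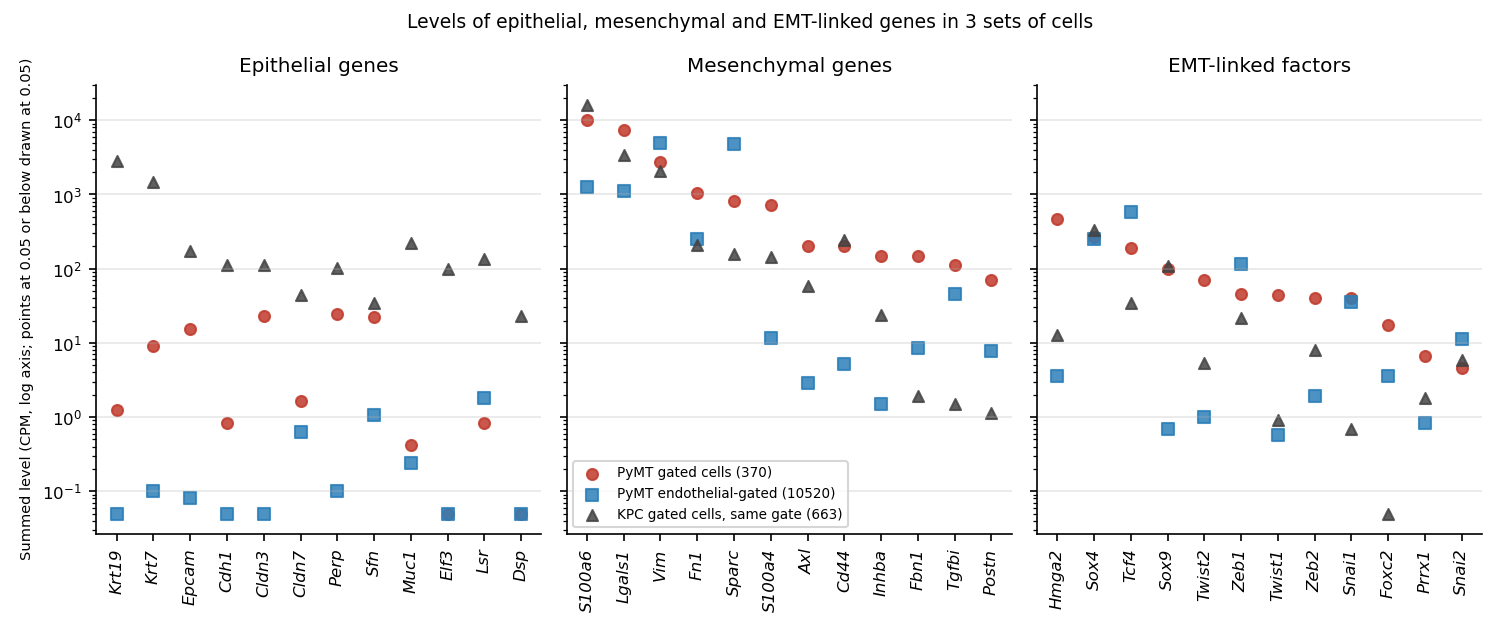
Points give the CPM (log axis) of 12 epithelial genes, 12 mesenchymal genes and 12 EMT-linked factors in PyMT gated cells (red circles), PyMT endothelial-gated barcodes (blue squares) and KPC cells of the same gate (black triangles), each a sum over 1 library. The red circles lie below the black triangles for all 12 epithelial genes, and above both other sets for Hmga2 (460 CPM), Twist1 (44.1 CPM), Twist2 (69.4 CPM) and Axl (202 CPM).

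Across all genes, 10905 had at least 100 UMIs over the gated cells and the other PyMT barcodes. Of these, 918 (8.42%) were at least 2-fold higher in gated cells and 2305 (21.1%) at least 2-fold lower, and the median log2 ratio was -0.13. These shares are the background for the counts of each gene list. The other barcodes outnumbered the gated cells, so a gene found mainly in gated cells could fall short of 100 UMIs, and 5 of 36 genes of the epithelial list were past this minimum. Of those 5, Sfn was higher (log2 ratio 3.91, 3.37 to 4.43) and Spint2 and Pkp3 were lower. Lsr, with 2 UMIs in gated cells, had a log2 ratio of -1.20 with an interval of -4.27 to 0.69, and this value was also the list median. With a minimum of 1 UMI, 34 of the 36 genes passed but 16 had a ratio, with a median of 2.71, since 16 were at or under 3 UMIs in both groups and 2 were at 0 in gated cells with a bound that gave no direction. With at least 20 UMIs, a limit chosen after seeing the data, 12 passed and 11 had a ratio, with a median of 1.31. The genes that dropped out for their bound were at 0 in gated cells, so these medians cover part of the list and give no direction for it.

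More mesenchymal genes were higher than lower in gated cells. Of the 30 listed genes 29 passed the minimum, 15 were at least 2-fold higher and 6 at least 2-fold lower, with a median log2 ratio of 1.12. Their summed level was 26768 CPM, against 14727 CPM in the other barcodes, 24044 CPM in KPC gated cells and 34124 CPM in KPC fibroblast-gated barcodes. S100a6 and Lgals1 made up 17637 CPM of the sum in gated cells, and without them, left out after their values were seen, the sum was 9131 CPM in gated cells and 11938 CPM in the other barcodes. S100a6, a calcium-binding protein, stood at 10166 CPM in gated cells and 1496 CPM in the others (log2 ratio 2.76, 2.74 to 2.79). Lgals1, which encodes galectin-1, stood at 7471 and 1292 CPM. In KPC gated cells S100a6 was at 16090 CPM, above its level in PyMT gated cells, and Lgals1 was at 3358 CPM. Both genes were found in every PyMT gated cell, S100a6 at between 1676 and 31877 CPM per cell.

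S100a4, a calcium-binding protein used as a marker of mesenchymal and motile cells, stood at 718 CPM against 24.8 CPM (log2 ratio 4.86, 4.75 to 4.96). Axl, a receptor tyrosine kinase, was at 202 CPM against 7.70 CPM, and Cd44, a hyaluronan receptor, at 199.6 CPM against 10.7 CPM. Inhba, the activin A subunit, reached 147 CPM against 7.43 CPM, Fbn1, fibrillin-1, 149 CPM against 14.4 CPM, and Fn1, fibronectin, 1042 CPM against 278 CPM. In endothelial-gated barcodes S100a4, Axl, Cd44, Inhba and Fbn1 stood between 1.496 CPM (Inhba) and 11.8 CPM (S100a4), and Fn1 at 253 CPM.

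Several classical mesenchymal genes were lower in gated cells or did not reach 2-fold. Vim, the vimentin filament gene, was at 2745 CPM against 4788 CPM in the other barcodes, and Sparc, a matrix glycoprotein that vessel cells also make, at 826 CPM against 4722 CPM (log2 ratio -2.52, -2.58 to -2.45). Tagln, a contractile protein gene of smooth muscle and myofibroblasts, had 1 UMI, and Lox, the collagen cross-linking enzyme, had 0. Acta2, smooth muscle actin, stood at 19.1 CPM against 12.9 CPM (log2 ratio 0.57). In KPC gated cells Sparc was at 157 CPM, below both PyMT sets, and of 26 mesenchymal genes with enough UMIs in that comparison 12 were at least 2-fold higher in PyMT and 5 lower.

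**Figure D3:**
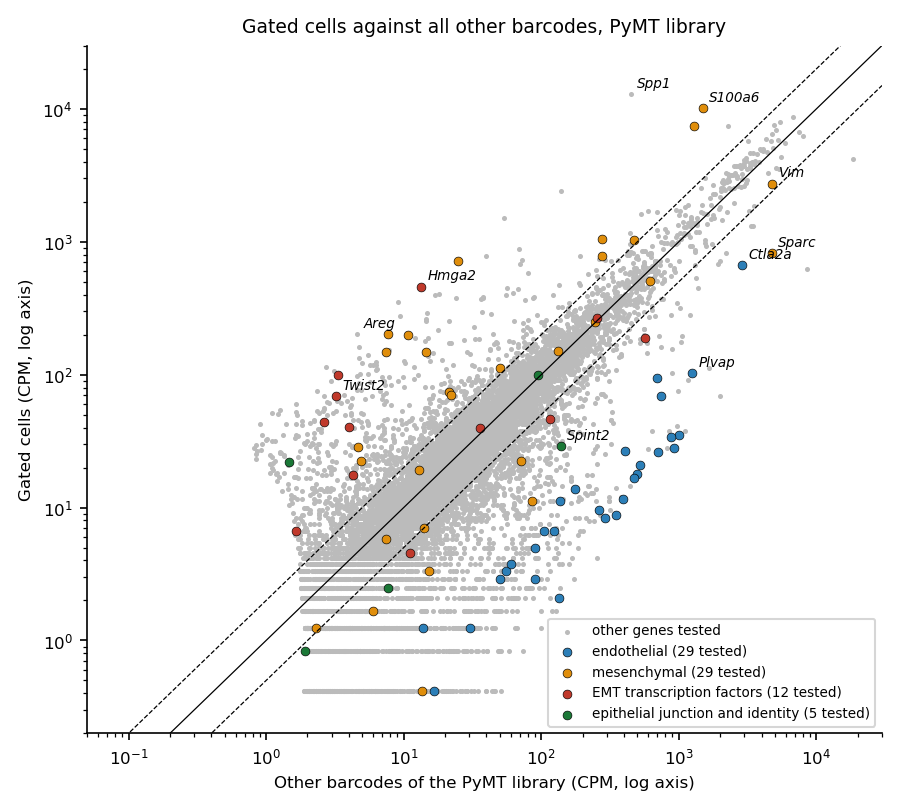
Each point is 1 of 10905 genes, with its CPM in the other 11374 PyMT barcodes (x, log axis) and in the 370 gated cells (y, log axis). The solid line marks equal levels and the dashed lines 2-fold differences, and genes at 0 in gated cells are drawn at the 3-UMI floor of 1.25 CPM. All 29 endothelial genes (blue) lie under the lower dashed line, whereas 15 of 29 mesenchymal genes (orange) and 7 of 12 EMT-linked factors (red) lie above the upper one.

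The factors linked to EMT were split, with more of them higher than lower. Of 13 listed factors 12 passed the minimum, 7 were at least 2-fold higher in gated cells and 3 at least 2-fold lower, with a median log2 ratio of 2.01. Hmga2, an architectural chromatin protein of embryonic and tumor cells at chr10:120361275-120476469 (GRCm38), had 1107 UMIs in gated cells, at 460 CPM against 13.4 CPM in the other barcodes and 12.8 CPM in KPC gated cells. Its log2 ratio over the other barcodes was 5.11 (4.97 to 5.24). Sox9, a factor of progenitor and cartilage cells, was at 99.4 CPM against 3.32 CPM, with 108 CPM in KPC gated cells. Twist2 was at 69.4 CPM against 3.25 CPM, Twist1 at 44.1 CPM against 2.65 CPM, Zeb2 at 40.3 CPM against 3.99 CPM and Foxc2 at 17.5 CPM against 4.30 CPM.

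Members of the same families differed. Zeb1 was lower in gated cells, at 46.2 CPM against 115 CPM, while Zeb2 was higher. Snai1 stood at 39.9 CPM against 35.9 CPM and Snai2 at 4.57 CPM against 11.1 CPM, so neither Snai gene was higher by 2-fold. Tcf4, a basic helix-loop-helix partner factor, was at 188 CPM against 573 CPM. Endothelial-gated barcodes held Zeb1 at 117 CPM and Tcf4 at 579 CPM. Against KPC gated cells, 7 of 9 factors with enough UMIs were at least 2-fold higher in PyMT and 0 lower, among them Snai1 at 39.9 against 0.69 CPM and Twist1 at 44.1 against 0.92 CPM.

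At an equal depth of 2000 UMIs, 47.1% of gated cells had a UMI of Hmga2 (41.9% to 52.4%) and 13.2% one of Twist2 (9.86% to 17.1%), compared with 0.65% and 0.16% of endothelial-gated barcodes. In cells of full depth these shares were 76.2% and 32.4%, against 1.20% and 0.35%. The median depth was 5908.5 UMIs in gated cells and 4025.5 in endothelial-gated barcodes.

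Collagen genes differed in both directions. Of 13 collagen genes, 6 were at least 2-fold higher and 6 lower, with a median log2 ratio of -0.66. The higher ones were Col3a1 (364 CPM against 76.0 CPM), the 3 collagen VI chains, Col8a1 and Col5a1, and Col6a1 stood at 179.6 CPM against 14.3 CPM. The lower ones included the basement membrane chains Col4a1 (91.1 against 1157 CPM) and Col4a2 (75.7 against 982 CPM) and the collagen I chains Col1a1 (5.41 against 18.8 CPM) and Col1a2 (1.66 against 27.7 CPM). In KPC fibroblast-gated barcodes the 13 genes summed to 27418 CPM, in gated cells to 1230 CPM.

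Matrix proteases and their inhibitors were higher as a group, with 9 of 15 at least 2-fold higher and 1 lower and a median log2 ratio of 1.52. Mmp3 (stromelysin-1) was at 106 CPM against 3.09 CPM, Mmp13 (collagenase-3) at 59.0 CPM against 4.14 CPM with UMIs in 2.97% of the gated cells, Ctsl (cathepsin L) at 1716 CPM against 597 CPM, and Timp1, an inhibitor of these metalloproteinases, at 775 CPM against 193 CPM. Of 14 fibroblast-list genes 11 passed the minimum, 6 higher and 5 lower. Serpinf1 (377 against 24.2 CPM), Gsn (188 against 14.9 CPM) and Cxcl14 (174 against 22.2 CPM) were higher, and Thy1, Col15a1, Dcn, C3 and Mfap5 lower. Pdpn, a target of the sort, was at 54.1 CPM against 20.8 CPM.

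Spp1 encodes osteopontin, a secreted phosphoprotein of bone, kidney and many carcinomas. It stood at 12879 CPM (12736 to 13024 CPM) in gated cells, 448 CPM in the other barcodes, 106 CPM in endothelial-gated barcodes and 10776 CPM in KPC gated cells. Per cell it ranged from 0 to 174434 CPM, with a median of 10035 CPM and quartiles of 4110 and 18455 CPM, and 97.8% of gated cells had a UMI at 2000 UMIs of depth (95.7% to 99.0%) beside 10.3% of endothelial-gated barcodes. At full depth the shares were 99.7% and 20.3%.

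Other cytokines differed in both directions. Of 17 of the list, Spp1 included, with enough UMIs, 8 were at least 2-fold higher and 5 lower, and the median log2 ratio was 0.96. Il33, an alarmin, was at 101 CPM against 4.83 CPM, Tslp, an epithelial cytokine, at 115 CPM against 11.9 CPM, Il34 and Csf1, both ligands of the macrophage growth factor receptor, at 37.0 against 2.52 CPM and 65.7 against 6.91 CPM. Cxcl9, a T cell chemokine, was at 2.08 CPM against 44.2 CPM, and Il6 had 2 UMIs. Tslp had 0 UMIs in KPC gated cells, whereas Il33 was at 121 CPM there.

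Growth factors that act on vessels were split by gene. Of 19 with enough UMIs, 7 were at least 2-fold higher and 10 lower. Ptn, pleiotrophin, was at 446 CPM against 56.5 CPM, Pdgfa at 217 CPM against 74.1 CPM, Tgfb3 at 69.4 against 5.84 CPM, Pdgfc at 39.1 CPM against 2.50 CPM and Vegfd at 33.3 CPM against 2.23 CPM. Vegfa itself had 30 UMIs, or 12.5 CPM, and 64 UMIs among the others. Apln, Angpt2, Pdgfb and Edn1, all of which vessel cells make, were lower. Of 12 growth factor receptors 7 were higher and 1 lower. The higher ones were Axl, Ddr2 (a collagen receptor), Pdgfrb, Pdgfra, Fgfr1, Met and Igf1r, with Fgfr1 at 259 CPM against 80.1 CPM. Egfr, with 45 UMIs in gated cells and 48 in all others, missed the minimum.

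Class I antigen presentation was lower as a group. All 12 genes passed the minimum, 0 were at least 2-fold higher and 9 at least 2-fold lower, with a median log2 ratio of -1.63. B2m, the shared light chain, was at 1304 CPM against 3461 CPM, H2-D1 at 449.9 CPM against 1379 CPM, and Tap1, a peptide transporter, at 7.07 CPM against 51.3 CPM. The levels in KPC gated cells were 509.7 CPM for B2m, 279.5 CPM for H2-D1 and 3.32 CPM for Tap1. Cd274, which encodes PD-L1, had 0 UMIs in gated cells and 90 in the other barcodes.

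Few genes of the cell cycle lists differed by 2-fold. Of 20 S phase genes 1 was at least 2-fold higher (Cdc45, 24.9 against 10.1 CPM) and 1 lower (Tyms, 60.7 against 139 CPM), with a median log2 ratio of 0.12. Of 20 G2 and M phase genes 1 was at least 2-fold higher (Cenpf, 162 against 67.3 CPM) and 0 lower, but 19 had a ratio above 0 on the log2 scale, with a median of 0.62 and a sum of 2422 CPM against 1709 CPM. Cyclin D1 (Ccnd1) was at 570.5 CPM against 219.9 CPM and cyclin D2 (Ccnd2) at 69.9 against 21.5 CPM. The cell cycle inhibitor Cdkn2b had 1 UMI (0.42 against 11.1 CPM). Cdkn2a had 0 UMIs, against 80 UMIs or 1.53 CPM in the other barcodes, and missed the minimum, so no direction is read from it. Trp53 stood at 205 CPM against 174 CPM. Of 21 glycolysis and hypoxia genes, 5 were higher, including hexokinase 2 (Hk2, 26.6 against 1.76 CPM), and 4 lower, including Slc16a3, a lactate exporter (2.49 against 22.5 CPM). Of 14 immediate early and heat shock genes, 3 were higher, Fosl1 by the most (55.3 against 2.64 CPM), and 1 lower (Atf3, 64.4 against 139 CPM).

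Genes of mammary lineage were present in part, and the luminal list was at a higher level in KPC gated cells, which come from pancreas tumors. Of 27 luminal genes 11 passed the minimum, with 3 at least 2-fold higher, 3 lower and a median log2 ratio of 0.01. The list summed to 573 CPM in gated cells, 263 CPM in the other barcodes and 2828 CPM in KPC gated cells, and of 12 luminal genes with enough UMIs against KPC 2 were higher and 8 lower in PyMT, with a median log2 ratio of -1.64. Gata3, the factor that directs luminal fate, was at 61.1 CPM against 2.85 CPM, with 147 UMIs in 110 cells. Areg, amphiregulin, an EGF receptor ligand of ductal growth, was at 203 CPM against 4.58 CPM, with 488 UMIs in 162 cells, and had the highest ratio of the genes at 100 CPM or more (log2 5.47, 5.24 to 5.70). Trps1, a GATA-type repressor of luminal cells, was at 74.8 against 27.3 CPM. The 3 lower luminal genes were Kit (0.83 against 40.6 CPM), Lalba (0 against 8.19 CPM) and Trf (4.57 against 9.68 CPM). Foxa1, Pgr, Csn2 and Wap had 0 UMIs and Esr1 had 3, and the 58 UMIs of Wfdc18 all came from 1 cell. The 13 basal genes summed to 23.3 CPM against 60.7 CPM in the other barcodes, and 3 passed the minimum, with 0 at least 2-fold higher and 2 lower (Mylk and Tagln). Acta2 made up 19.1 CPM of that sum, and the basal keratins Krt5, Krt15, Krt17 and Krt6a had 0 UMIs, Krt14 had 6 and Trp63 had 1.

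Of the genes with at least 100 CPM in the higher group, the 15 highest ratios, led by Areg, belonged to genes of several kinds. Dmp1, a matrix phosphoprotein of bone and dentin, was at 115 CPM against 2.73 CPM and Prkg2, a cGMP-dependent kinase, at 354 CPM against 9.05 CPM. Kcnn4 (a calcium-activated potassium channel, 161 against 4.76 CPM), Sdc4 (syndecan-4, 279 against 9.42 CPM), Wnt7b (134 against 4.70 CPM), Lgals7 (galectin-7, 1508 against 53.8 CPM), Hmga1 (141 against 5.50 CPM), Phgdh (the first enzyme of serine synthesis, 122 against 4.99 CPM) and Slpi (a secreted protease inhibitor, 398 against 16.8 CPM) followed, with Mmp3, Hmga2, S100a4, Spp1 and Axl described above. In KPC gated cells Areg stood at 206 CPM, Prkg2 at 212 CPM, Kcnn4 at 135 CPM, Sdc4 at 255 CPM and Phgdh at 448 CPM, whereas Dmp1 was at 0.23 CPM and Lgals7 at 13.9 CPM there. The 15 lowest ratios, from Lmo2 (1.66 against 128 CPM, log2 -6.27) to Fli1 (3.74 against 135 CPM, log2 -5.17), included other genes of vessel cells such as Ptprb, a phosphatase of the angiopoietin pathway, Aplnr, the apelin receptor, and Apold1.

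The keratin threshold did not mark an edge in mesenchymal genes, Spp1 or Hmga2, as the plot of both thresholds shows. The 52 barcodes with 2 keratin UMIs that met all other limits had 26326 CPM of mesenchymal genes and 17404 CPM of Spp1, and the 34 gated cells with 3 keratin UMIs had 27423 and 16284 CPM. Hmga2 was at 329 CPM on both sides. The immune list was at 41.8 CPM at 1 keratin UMI, 74.2 CPM at 2 and 6.71 CPM at 3. These low sums over few barcodes have no interval, so no edge is read from them. The epithelial list was at 162 and 93.9 CPM at 2 and 3 keratin UMIs. The 65 barcodes with 1 keratin UMI stood at 21768 CPM of mesenchymal genes and 12042 CPM of Spp1, and the 609 with none at 15237 and 3645 CPM. Within the gate, Hmga2 was at 329 CPM at 3 keratin UMIs and 503 CPM in the 191 cells with 10 or more, while Spp1 was at 16284 and 11252 CPM. The endothelial list summed to 1226 CPM at 2 endothelial UMIs (41 cells) and 2012 CPM at 3 (17 barcodes just outside). At 5 or more (77 barcodes) it summed to 6398 CPM. A rise was built in, since the genes that bin the barcodes and those of the list mark the same cells, so no edge is read from it. Median depth was 7068 UMIs at 2 endothelial UMIs, 7693 at 3 and 10248 at 5 or more. The 17 barcodes just outside held 781 CPM of epithelial genes. Of gated cells, 201 had 0 UMIs of the endothelial sum and 128 had 1. The Lum and Dpt sum was 0 in 359 gated cells and 1 in 11, with 3 barcodes just outside.

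**Figure D4:**
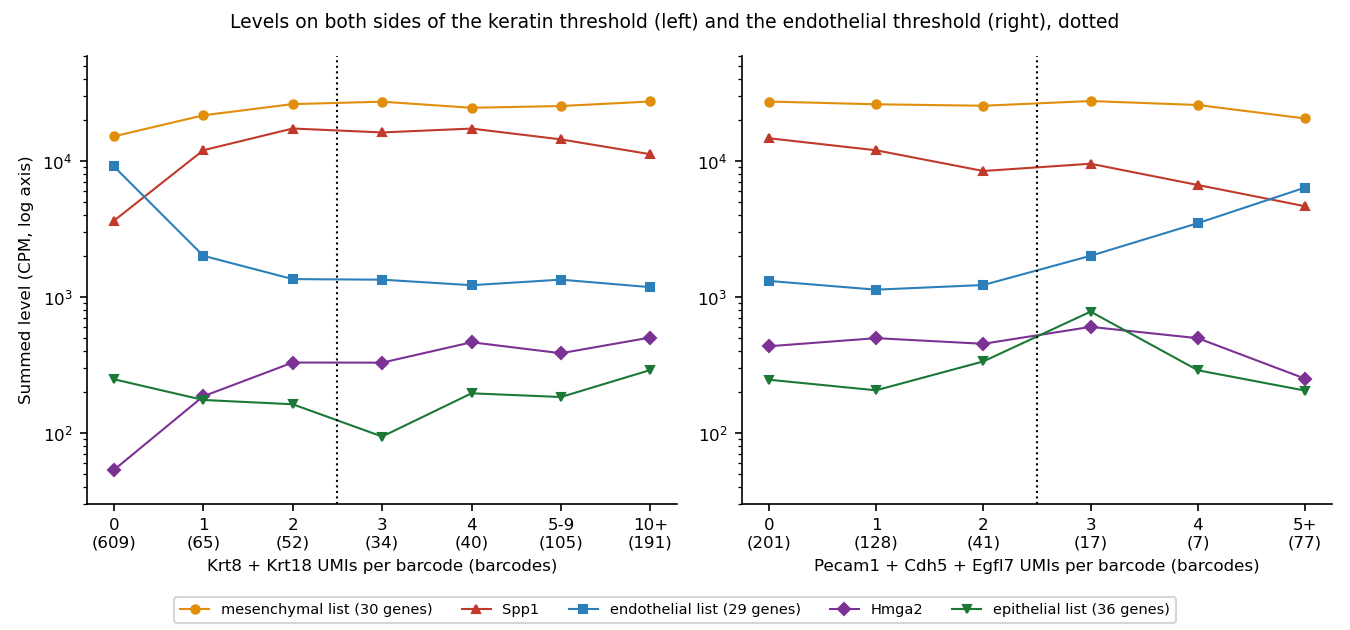
Summed CPM (log axis) of 3 gene lists and of Spp1 and Hmga2, by the number of Krt8 and Krt18 UMIs (left) or of Pecam1, Cdh5 and Egfl7 UMIs (right) in barcodes that met every other limit, with the number of barcodes in brackets and the threshold dotted. Mesenchymal genes and Spp1 lie at similar levels on both sides of the keratin threshold (26326 and 27423 CPM for the list). Endothelial genes increase from 1226 CPM at 2 endothelial UMIs to 6398 CPM at 5 or more, a rise built in by binning on endothelial genes.

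A clustering of the whole library put all 370 gated cells in 1 of 17 clusters, whose 715 cells also included 345 that were not gated. Of these, 248 had fewer than 3 keratin UMIs, 117 had none, and 141 exceeded the endothelial limit. The other barcodes therefore contain cells that clustered with the gated ones, and their levels of Spp1 (448 CPM, against 106 CPM in endothelial-gated barcodes) and Hmga2 (13.4 against 3.56 CPM) include them. Depth also moved with some values: over the 124 shallowest, 123 middle and 123 deepest gated cells, Spp1 was at 20582, 13832 and 9516 CPM and Hmga2 at 316, 429.7 and 531 CPM. The part of depth in these differences was not tested.

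The gated cells differed among themselves. Clustering them alone gave 5 subgroups of 105, 92, 78, 65 and 30 cells (4 and 7 at a lower and a higher resolution), described here without a test because the same genes made the subgroups. Subgroup 1 was the deepest, with a median of 8452 UMIs, and was led by the noncoding RNA Pvt1 (214 CPM, against 31.9 CPM in the other gated cells) and the fatty acid binding protein Fabp5 (145 against 35.9 CPM). Subgroup 2 was led by the collagen-associated gene Cthrc1, Enpp2 (autotaxin, which makes lysophosphatidic acid) and Ibsp (bone sialoprotein), with Ptn at 1284 CPM, the BMP antagonist Grem1 at 423 CPM, Spp1 at 19999.6 CPM and Col3a1 at 736 CPM. Subgroup 3 was led by Col28a1, S100b, Mmp2 and Cxcl14 (669 CPM) and held Slpi at 1195 CPM and Dmp1 at 376 CPM, and its G2 and M phase genes summed to 313 CPM. Ctla2a stood at 1956 CPM in subgroup 3, against 267 to 481 CPM in the others. Subgroup 4 was led by mitotic genes such as Kif20b and Cenpf, with G2 and M phase genes at 5614 CPM, and these genes stood at 2987 CPM in subgroup 1, 487 CPM in subgroup 2 and 2485 CPM in subgroup 5. Subgroup 4 also held Ptn at 1046 CPM and Grem1 at 355 CPM, as subgroup 2 did.

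Subgroup 5, the smallest, held epithelial genes at the highest level. Its 30 cells were led by Klk8 (a kallikrein protease, 214 CPM), Wfdc2 (a secreted protein of epithelia, 149 CPM) and Epcam (141 CPM), and its epithelial list summed to 978 CPM, against 126 to 205 CPM in the other subgroups. It contained 35 of the 37 Epcam UMIs, 22 of 22 of Krt7, 45 of 56 of Cldn3, 32 of 58 of Perp and 20 of 20 of Cd24a, a mucin-like epithelial surface protein. The Epcam UMIs came from 8 cells of the subgroup, and 1 of these cells held 15 of them. Since the sort removed cells with EpCAM protein, the share of such cells in the tumor was not measured. At the higher resolution 29 of these 30 cells stayed together in a group of 29, and at the lower one all 30 joined a group of 133. Subgroups 1 and 2 held together less at the higher resolution, with 72 of 105 and 49 of 92 cells in 1 group, whereas 76 of 78 cells of subgroup 3 and 64 of 65 of subgroup 4 stayed in 1 group.

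Genes of the epithelial list and genes of the mesenchymal and EMT lists had UMIs in the same cells of subgroup 5. Of the 34 epithelial genes other than Jup and Spint2, at least 3 had UMIs in 13 of the 30 cells and in 3 of the other 340 gated cells, at median depths of 8031.5 UMIs in subgroup 5 and 4703.5 to 8452 UMIs in the other subgroups. Of these 13 cells, 13 had UMIs of Cd44, 12 of Hmga2 and 12 of Axl, genes with a UMI in 58.4%, 76.2% and 64.9% of all gated cells, and 4 had UMIs of Twist1, 4 of Zeb2 and 0 of Twist2. Subgroup 5 stood at 788 CPM for Hmga2, 440.4 CPM for Cd44 and 359.6 CPM for Axl, above the other 4 subgroups in each, while Twist2 was at 12.1 CPM against 35.1 to 98.3 CPM, and Ibsp was at 0 and Grem1 at 4.04 CPM. The 345 cells of the same cluster that were not gated contained 5 with at least 3 epithelial genes and 22 Epcam UMIs.

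**Figure D5:**
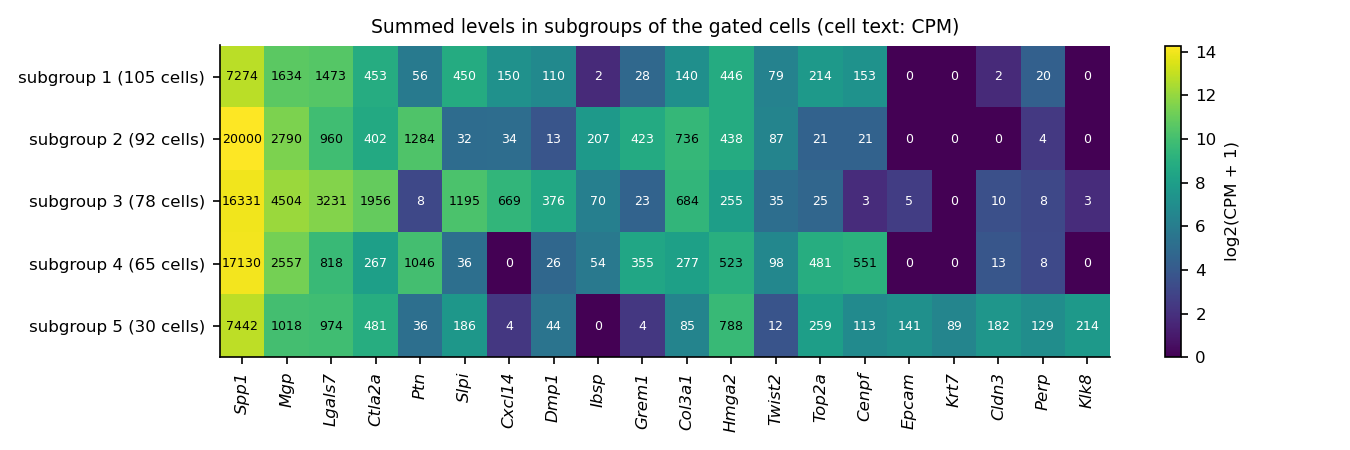
Each cell of the map gives the CPM of a gene in a subgroup of the gated cells, colored by log2(CPM + 1). Subgroup 5 (30 cells) holds the highest levels of Epcam, Krt7, Cldn3, Perp and Klk8, subgroups 2 and 4 the most Ptn and Grem1, subgroup 3 the most Ctla2a, Slpi and Dmp1, and Spp1 and Hmga2 are present in all 5.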

How the data were processed

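Libraries were made with the 10x Genomics 3' assay on the Chromium controller. The kit version is given differently in the sources used here. The authors deposited raw UMI counts per gene and barcode, made with Cell Ranger 3.0 on mm10 (the file headers give software version 3.0.2). Matrices were read without further correction, and 31055 features were kept. For symbols shared by several features, the feature with most UMIs kept the symbol. UMI counts were summed per group of cells and scaled to 1000000 (CPM). Log2 ratios carry exact conditional intervals and CPM exact Poisson intervals (95%), for counting error of UMIs only. Shares carry Clopper-Pearson intervals (95%), which treat the cells of 1 library as independent. Genes needed 100 UMIs over both groups, and a group at 0 was set to 3 UMIs, giving a bound. Genes at or under 3 UMIs in both groups, or with a bound that gave no direction, had no ratio, which at the minimum of 100 UMIs removed 0 genes. No p-value was computed, since each model had 1 library. Clustering used scanpy 1.11.5 and leidenalg 0.10.2 (Python 3.11.15, scipy 1.17.1) with 2000 variable genes, 30 components, 15 neighbors and resolution 1 for the library, and 1000 variable genes without the gate genes, 20 components and resolution 0.5 for the gated cells, seed 0. In data simulated with Poisson counts, 95.7% of intervals for gated cells against other barcodes held the set ratio over 10905 genes. The intervals rest on the same model, so this checks their calculation and not their fit to these data. Clumping of UMIs in single cells was not simulated.

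The members and the 24 gene lists were chosen with earlier results of these data known. Named genes were, per list, those past 2-fold with the highest level and the largest ratio (up to 4, or 8 for the epithelial, mesenchymal and EMT lists), the 15 highest and 15 lowest ratios at 100 CPM or more, and Epcam and Pdpn. Genes given for what they did not show, the keratins, the subgroup genes, Xist, the Y-linked genes and further list members were named after their values were seen. Of 114 genes named by the rule, 47 share bases with an opposite-strand gene in the count table, and whether counting used strand is not given in the sources used here. Positions are from GENCODE M21, which matched 30934 features. Ccn1 and Ccn2 of the lists are Cyr61 and Ctgf in the files. Alternatives covered the cell filter, both gate thresholds, doublet scores, the comparator, the weighting and depth of cells, centring and the count minimum.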

Additional observations from a re-analysis of the deposited data

How the results depend on the processing

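No paired analysis was possible because each tumor model had 1 library, and leaving out a replicate was not possible for the same reason. The number of gated cells was 201 with an endothelial sum of exactly 0 and 715 with the library cluster in place of the gate. The genes at least 2-fold higher numbered 411 and those lower 1487 with at least 500 UMIs over both groups, and the higher ones 2046 with at least 1 UMI, since these limits change how many genes enter. Of 17793 genes with at least 1 UMI, 13038 had a ratio, as 2766 were at or under 3 UMIs in both groups and 1989 were at 0 in gated cells with a bound that gave no direction, which leaves out genes that may be lower. By the same rule the epithelial median turned to 2.71 over 16 of 34 genes with at least 1 UMI and to 1.31 over 11 of 12 genes with at least 20 UMIs (chosen after seeing the data). The mesenchymal median stayed positive, at 1.33 (endothelial sum 0), 1.24 (endothelial-gated comparator), 1.19 (mean of each cell's CPM), 1.35 (cells thinned to 2000 UMIs) and 1.25 (centred ratios), and the endothelial median was -2.71 in the library cluster, which includes 141 cells over the endothelial limit. Unthinned shares were 99.7% for Spp1, 76.2% for Hmga2 and 32.4% for Twist2. Of the named genes, Lsr turned to 0.63 in thinned cells (2 UMIs in gated cells before thinning), and no other gene of 114 changed direction under the settings that gave it a value, but 85 moved past their counting interval with the library cluster, 51 with an endothelial sum of 0, 45 with the endothelial-gated comparator and 39 in thinned cells. Thinning left 5 of 8 cells of subgroup 5 with an Epcam UMI, and a keratin sum of at least 1 gave 487 cells, both chosen after seeing the data. Limits on depth were plain for single genes: a count of 0 in the gated cells allows up to 1.25 CPM by the floor of 3 UMIs, and 5 of 36 epithelial genes passed the count minimum.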

Other observations

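Genes of mineralized matrix were detected in gated cells. Spp1, Dmp1 and Ibsp belong to a family of secreted phosphoproteins whose genes lie in a row on mouse chromosome 5, and they were chosen for description after their values were seen. In GRCm38 the row runs from Dspp (chr5:104170712-104180127) through Dmp1 (chr5:104202613-104214102), Ibsp (chr5:104299171-104311469) and Mepe (chr5:104325329-104338611) to Spp1 (chr5:104435118-104441050). Spp1 stood at 12879 CPM in gated cells, Dmp1 at 115 CPM in 65 cells and Ibsp, bone sialoprotein, at 62.0 CPM in 44 cells, against 2.73 CPM for Dmp1 and 2.79 CPM for Ibsp in the other barcodes. Dspp and Mepe, in the same row, had 0 UMIs. Of the flanking genes, Pkd2 was at 20.8 CPM against 20.9 CPM in the other barcodes. Sparcl1, a matrix protein of vessels, was at 102 CPM against 898 CPM. Endothelial-gated barcodes held Sparcl1 at 925 CPM and KPC gated cells held it at 14.4 CPM. Among gated cells, Sparcl1 was a leading gene of subgroup 2, as Ibsp was, at 281 CPM against 58.5 CPM in the other gated cells. In KPC gated cells Spp1 was at 10776 CPM, Dmp1 at 0.23 CPM and Ibsp at 0.

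Dmp1 and Ibsp differed in the subgroups that held them at the highest level. Dmp1 was at 110.1 CPM in subgroup 1, 12.7 CPM in subgroup 2, 376 CPM in subgroup 3, 25.9 CPM in subgroup 4 and 44.4 CPM in subgroup 5. Ibsp was at 2.22, 207, 70.1, 54.3 and 0 CPM in the same order. A further 4 genes, also chosen after their values were seen, were at a higher level in gated cells than in the rest of the library. Mgp, the matrix Gla protein that inhibits calcification, was at 2422 CPM in 333 of 370 cells against 140.4 CPM, Scx, the tendon factor scleraxis, at 102 CPM against 5.46 CPM, Tnnt2, cardiac troponin T, at 262 CPM against 14.6 CPM, and Runx2, the osteoblast factor, at 14.97 CPM against 0.88 CPM. KPC gated cells held Mgp at 44.0 CPM, Scx at 2.18 CPM, Tnnt2 at 145 CPM and Runx2 at 20.7 CPM.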
